A study of Mus musculus with 32 samples.

Results

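Glucuronidation and sulfation join a glucuronic acid or a sulfate group to a drug, hormone, or lipid product, which makes the compound more soluble and easier to export. The 10 genes described here encode enzymes of both routes and were taken as the rows of the count table that carry their symbols, 10 of 34453 rows. They are *Ugdh*, *Ugt1a1*, *Ugt1a6a*, *Ugt1a6b*, *Ugt1a7c*, *Papss1*, *Papss2*, *Sult1a1*, *Sult1c1*, and *Sult1d1*. They were chosen by their measured differences between Nrf2 and control eyes and between the ages, so these differences are a description. Whether a member passed the threshold of the fit over all genes is given to place it among all genes, and supports nothing, since the choice used the same contrasts. The relation to the transgene within Nrf2 eyes was tested apart from these contrasts. The change of the Nrf2 effect from P20 to P40 was also tested. It is the difference between contrasts that the choice used, in the same libraries, so it is not independent of the choice.

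RNA came from the retinal pigment epithelium (RPE) of *rd1* mice, in which rods degenerate through loss of the rod phosphodiesterase subunit Pde6b, and all 4 groups carry this genotype according to the labels. Every eye was given the GFP virus AAV Best1 GFP, and 1 eye per mouse was also given AAV Best1 Nrf2, in which the RPE-selective Best1 promoter drives human NFE2L2 (Nrf2 eye, against the control eye). Nrf2 and control libraries were paired into 7 mice at P20 and 9 mice at P40 by the replicate number in their titles. That a shared number marks the eyes of 1 mouse is an assumption, on which all statements about pairs rest. Different mice were used at each age, and the Nrf2 and age comparisons share their control libraries. The labels were followed for every group, but the methods do not match them. They describe P40 pairs of both *rd1* and wild-type CD1 mice, whose numbers add up to the P40 mice labelled *rd1* here, and fewer P20 pairs than are labelled. If wild-type mice are among the P40 libraries, strain and age cannot be told apart in the age comparisons and in the change of the Nrf2 effect, and the P40 values are a mixture of strains.

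The libraries held between 16548332 and 50542797 estimated counts. The human NFE2L2 transgene lay between 1082 and 9506 CPM, the count of a gene scaled to a common library size with TMM factors, in the P20 Nrf2 eyes and between 3205 and 10438 CPM in the P40 Nrf2 eyes. It was at or below 154 CPM in every control library other than that labelled P20 mouse 3 control, which was at 1098 CPM, close to the 1082 CPM of the library labelled P20 mouse 4 Nrf2. These 2 libraries differed by 8.26 times the sampling noise, against 48.6 times for the next closest pair, so the members' P20 and age differences are also given without P20 mice 3 and 4. All 10 RPE markers were detected in each group, with a summed level between 5168 and 70539 CPM. The summed level of the 6 cone markers was between 37.2 and 889 CPM in P20 control eyes, 15.98 and 83.9 CPM in P20 Nrf2 eyes, 259 and 2022 CPM in P40 control eyes, and 27.1 and 235 CPM in P40 Nrf2 eyes, and none of the 6 was at 0 throughout a group. In these whole-tissue RNA samples, fewer cells of a type and less RNA per cell cannot be told apart.

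UDP-glucose dehydrogenase (*Ugdh*) makes UDP-glucuronic acid, the sugar donor that the UDP-glucuronosyltransferases of the *Ugt1a* locus pass on to their substrates. The PAPS synthases *Papss1* and *Papss2* make the sulfate donor PAPS, which cytosolic sulfotransferases such as *Sult1a1*, *Sult1c1*, and *Sult1d1* use. Nrf2 is a transcription factor known for the induction of detoxifying enzymes through the antioxidant response element, which it binds with a small Maf partner.

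The *Ugt1a* genes lie in 1 locus on chromosome 1 (GRCm38, plus strand), and each joins an exon of its own to 4 common exons of 132, 88, 220, and 871 bases. The junctions are shown because they mark which reads can tell the genes apart, with the end of the gene's own exon in lower case and the start of common exon 1, at chr1:88215044, in capitals.
Ugt1a1: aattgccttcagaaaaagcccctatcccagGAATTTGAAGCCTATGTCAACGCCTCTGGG
Ugt1a6a: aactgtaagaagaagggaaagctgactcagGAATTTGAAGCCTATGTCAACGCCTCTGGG
Ugt1a6b: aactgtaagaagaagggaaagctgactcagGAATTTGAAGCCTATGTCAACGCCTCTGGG
Ugt1a7c: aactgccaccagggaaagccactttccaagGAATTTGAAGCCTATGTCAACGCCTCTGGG
Ugt1a9: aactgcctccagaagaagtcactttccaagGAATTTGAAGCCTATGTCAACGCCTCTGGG
The own exon of *Ugt1a1* lies at chr1:88211959-88212871, that of *Ugt1a6a* at chr1:88138473-88139331, that of *Ugt1a6b* at chr1:88106941-88107799, and that of *Ugt1a7c* at chr1:88095064-88095978. The printed letters of *Ugt1a6a* and *Ugt1a6b* are the same. Over their own exons of 859 bases these genes differ at 26 positions (97.0% identity), and the longest identical run is 251 bases. A read inside the 1311 common bases fits every *Ugt1a* gene, so the split between the rows is an estimate, and the locus was also counted as 1 feature. In addition, 1 of the 4 annotated *Ugt1a7c* transcripts contains the *Ugt1a6a* exon.

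*Ugdh* was higher in the Nrf2 eye than in the control eye of every mouse, which held for 5.59% of all genes tested at P20 and 3.55% at P40. At P20, *Ugdh* ranged from 76.6 to 107 CPM (median 83.8) in control eyes and from 98.7 to 192 CPM (median 151) in Nrf2 eyes. The groups overlapped only through the libraries labelled P20 mouse 4 Nrf2, at 98.7 CPM, and P20 mouse 3 control, at 107 CPM. At P40, *Ugdh* ranged from 50.2 to 124 CPM (median 95.7) in control eyes and from 104 to 249.9 CPM (median 189) in Nrf2 eyes, and the groups overlapped. The fitted log2 fold change of *Ugdh* was 0.81 ± 0.13 (SE, 7 pairs) at P20, or 1.75-fold, and 0.85 ± 0.16 (SE, 9 pairs) at P40, or 1.80-fold. Without P20 mice 3 and 4 the P20 value of *Ugdh* was 0.92, in a fit that called 4.58% of all genes.

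*Ugdh* passed the threshold (edgeR, adjusted *P* under 0.05 over all genes tested) at both ages. At P20, 2 of the 9 members tested passed it, *Ugdh* upward and *Sult1c1* downward, beside 3.41% of all genes tested in either direction. At P40, 4 of 9 passed, with *Ugdh*, *Ugt1a6a*, and *Ugt1a6b* upward and *Sult1c1* downward, beside 4.57% of all genes. The transgene itself did not pass at P20 (log2 fold change 7.36 ± 1.74, SE, edgeR adjusted *P* = 0.0601). It passed at P40 (13.3 ± 1.70, SE). A missing P20 call thus does not show that a gene was unchanged. The members were chosen with these contrasts known, and nothing is read from the counts. The median log2 fold change was 0.02 over the 9 members and −0.04 over all genes at P20, and 0.04 and −0.03 at P40. The P20 calls were sensitive to single mice. *Ugdh* kept its call without mouse 2 or mouse 4 and lost it without any 1 of the other 5, with log2 fold changes between 0.74 and 0.90. *Sult1c1* kept its call only without mouse 4. At P40, *Ugt1a6b* lost its call without mouse 2, 5, 7, or 9 (log2 fold changes between 1.61 and 2.11 over the 9 fits), while *Ugdh*, *Ugt1a6a*, and *Sult1c1* kept theirs in 9 of 9. At P20, the share of all genes called moved with the mouse left out as well. It was 0.88% without mouse 1, 2.32% without mouse 2, 1.0% without mouse 3, 12.2% without mouse 4, 0.943% without mouse 5, 1.39% without mouse 6, and 0.68% without mouse 7.

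**Figure D1:**
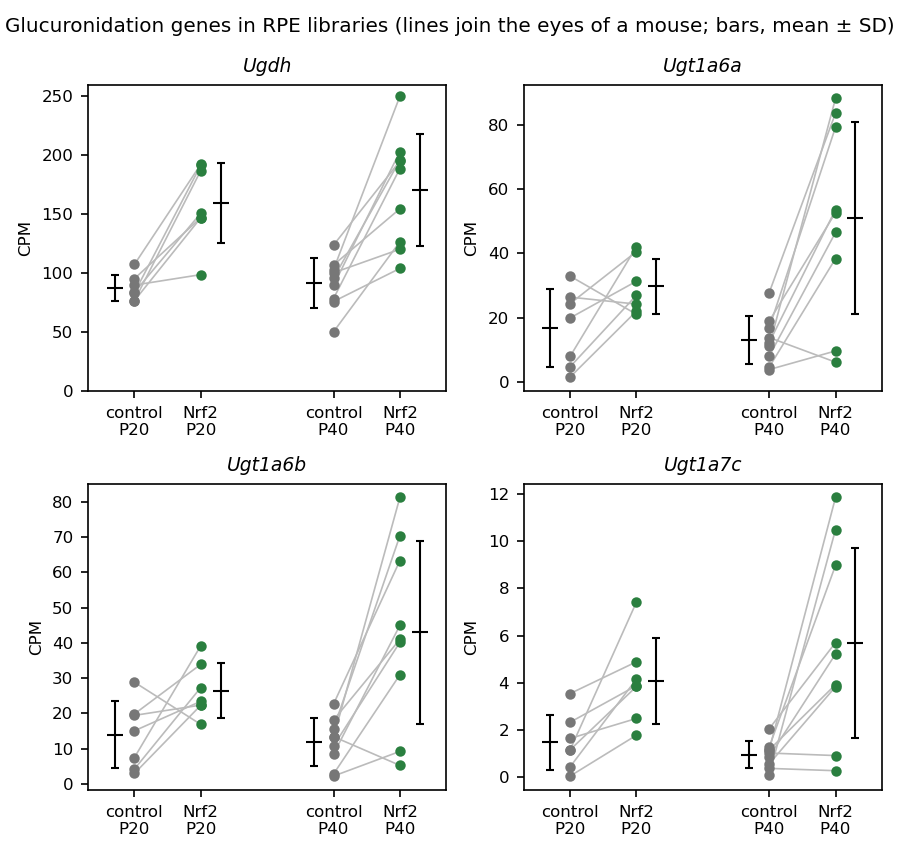
Level in CPM of *Ugdh*, *Ugt1a6a*, *Ugt1a6b*, and *Ugt1a7c* in every library, with control eyes in gray, Nrf2 eyes in green, a line joining the eyes of a mouse, and the mean ± SD beside each group (7 mice at P20, 9 at P40). All lines of *Ugdh* rise, and at P40 a pair of low Nrf2 eyes, those of mice 3 and 6, stands below the others in the *Ugt1a* panels.

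*Ugt1a6a* and *Ugt1a6b*, which encode phenol-conjugating isoforms, held most of the counts of the locus. At P20, *Ugt1a6a* ranged from 1.47 to 32.9 CPM (median 19.9) in control eyes and from 21.03 to 42.1 CPM (median 27.0) in Nrf2 eyes, and 5 of 7 mice had more in the Nrf2 eye. At P40, *Ugt1a6a* ranged from 3.82 to 27.8 CPM (median 12.2) in control eyes and from 6.12 to 88.3 CPM (median 52.7) in Nrf2 eyes, and 8 of 9 mice had more in the Nrf2 eye. The groups overlapped at both ages, and the spread among control eyes was wide. The log2 fold change of *Ugt1a6a* was 1.26 ± 0.57 (SE) at P20 and 1.83 ± 0.38 at P40. The P20 value was 1.08 without P20 mice 3 and 4 and 0.78 without the mouse as a block.

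*Ugt1a6b* ranged from 2.19 to 22.6 CPM (median 13.1) in P40 control eyes and from 5.22 to 81.2 CPM (median 40.98) in P40 Nrf2 eyes. Its log2 fold change was 1.22 ± 0.49 (SE) at P20, with 6 of 7 mice higher, and 1.81 ± 0.39 at P40, with 8 of 9 mice higher. The P20 value was 1.09 without P20 mice 3 and 4. *Ugt1a6a* took 51.5% ± 8.33 (SD, n = 7) of the counts of both *Ugt1a6* genes in P20 control eyes, 52.9% ± 2.92 (SD, n = 7) in P20 Nrf2 eyes, 53.6% ± 7.14 (SD, n = 9) in P40 control eyes, and 54.1% ± 1.89 (SD, n = 9) in P40 Nrf2 eyes. These shares differed by less than the spread between libraries.

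*Ugt1a7c* was a minor part of the locus, at 4.04% ± 1.93 (SD, n = 7) of its counts in P20 control eyes and 5.25% ± 1.83 (SD, n = 9) in P40 Nrf2 eyes. At P20 it ranged from 0.0307 to 3.54 CPM (median 1.14) in control eyes and from 1.77 to 7.42 CPM (median 3.87) in Nrf2 eyes, higher in the Nrf2 eye of 7 of 7 mice. At P40 it ranged from 0.0851 to 2.04 CPM (median 1.01) in control eyes and from 0.259 to 11.9 CPM (median 5.22) in Nrf2 eyes, higher in 7 of 9 mice. Its log2 fold changes of 1.91 ± 0.63 (SE) at P20 and 2.21 ± 0.63 at P40 were the largest upward values among the members and did not pass the threshold at either age. The P20 value was 1.69 without P20 mice 3 and 4. DESeq2 called *Ugt1a7c* at both ages, beside 12% of all genes at P20 and 8.27% at P40.

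*Ugt1a1*, the main bilirubin-conjugating isoform, varied widely between libraries. It ranged from 0.0603 to 3.66 CPM in P20 control eyes, 0 to 2.85 CPM in P20 Nrf2 eyes, 0 to 2.59 CPM in P40 control eyes, and 0 to 2.81 CPM in P40 Nrf2 eyes. A library at 0 allows up to 3 counts, or between 0.0566 and 0.182 CPM depending on its depth, for counting error only. Its log2 fold change was −0.15 ± 1.19 (SE) at P20 (−0.06 without P20 mice 3 and 4) and −0.61 ± 0.91 at P40. The differences between the eyes of a mouse ran from −6.01 to 1.87 on the log2 scale at P20 and from −3.41 to 2.71 at P40, and 8 of the 32 libraries were at or under 3 counts.

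Counted as 1 feature, the *Ugt1a* locus ranged from 6.92 to 51.9 CPM (median 27.3) in P40 control eyes and from 12.6 to 185 CPM (median 102) in P40 Nrf2 eyes, with 8 of 9 mice higher. Its log2 fold change was 1.77 ± 0.37 (SE) at P40, past the threshold, and 1.29 ± 0.52 at P20, which did not pass with edgeR and did with DESeq2. Without P20 mice 3 and 4 the P20 value was 1.16. The exception at P40 was mouse 6, whose Nrf2 eye had 12.6 CPM against 29.0 CPM in its control eye, with the transgene at 5117 CPM. This mouse also had the smallest difference in *Ugdh* (0.26 on the log2 scale) and in *Sult1c1* (−0.87) among the P40 mice. The summed cone markers of mouse 6 were 259 CPM in the control eye and 235 CPM in the Nrf2 eye, the highest among the P40 Nrf2 eyes. Its summed RPE markers were 18175 CPM in the control eye and 55285 CPM in the Nrf2 eye. In mouse 3 the locus was at 19.4 CPM in the Nrf2 eye and 6.92 CPM in the control eye. That Nrf2 eye had 70539 CPM of RPE markers and 30.7 CPM of cone markers. The other P40 Nrf2 eyes had at most 23416 CPM of RPE markers. The part of these levels in the result was not tested.

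**Figure D2:**
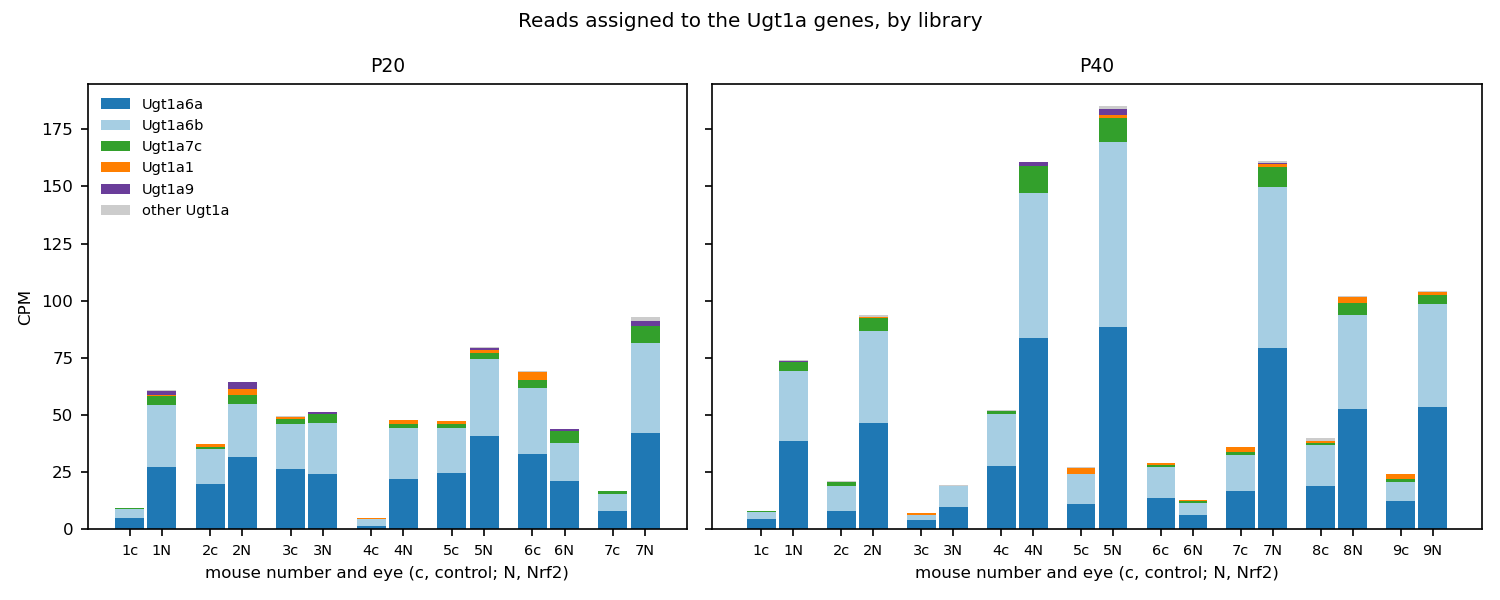
CPM assigned to each *Ugt1a* gene, stacked for every library from 0, with the control (c) and Nrf2 (N) eye of each mouse side by side. *Ugt1a6a* and *Ugt1a6b* take nearly all of each bar, the tallest Nrf2 bar reaches 185 CPM (P40 mouse 5), and the Nrf2 bar is the shorter of the pair in P20 mouse 6 and P40 mouse 6.

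*Ugt1a9* is not among the 10 genes and was singled out after its values were seen. It had 0 counts in all 16 control libraries, those of P20 and P40 alike. In the P20 Nrf2 eyes of mice 1 to 7 it had 71, 53, 20, 0, 32, 24, and 114 counts, and the 0 is in the library labelled P20 mouse 4 Nrf2. In the P40 Nrf2 eyes of mice 1 to 9 it had 25, 4, 0, 59, 100, 0, 26, 0, and 0 counts. It did not pass the filter on low counts in either Nrf2 comparison. It was called at P40 in the fit with no filter, beside 2.59% of all genes. At P20 it was called in the fit without P20 mouse 4, beside 12.2%. These calls repeat the contrast by which it was singled out and support nothing. Its counts rest on the same estimate of the split within the locus.

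The promoters of *Ugdh* and *Sult1c1*, the members called at both ages, are shown because they hold letters that resemble sites of Nrf2 or of AP-1, with the match in capitals. They are RefSeq sequences (GRCm38.p6), printed on the strand of the gene, and end at the base before the annotated start, at chr5:65435950-65436092 (minus strand) for *Ugdh* and chr17:53990675-53990881 (minus strand) for *Sult1c1*.
Ugdh: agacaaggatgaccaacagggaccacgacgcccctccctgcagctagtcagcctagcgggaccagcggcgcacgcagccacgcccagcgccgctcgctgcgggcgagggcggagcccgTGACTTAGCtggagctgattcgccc
Sult1c1: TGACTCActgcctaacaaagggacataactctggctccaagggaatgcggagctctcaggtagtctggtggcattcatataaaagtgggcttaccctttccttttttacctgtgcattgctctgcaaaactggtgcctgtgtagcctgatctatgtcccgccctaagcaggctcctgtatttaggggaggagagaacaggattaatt
The antioxidant response element core TGACNNNGC, searched on both strands, was in the *Ugdh* window alone among 11 windows of 9 members, with *Ugt1a6b* not searched, and in 10.2% of 32851 windows of 250 bases over all genes. The AP-1 motif TGACTCA was in the *Sult1c1* window alone, and in 4.46% of all windows. A sequence that holds both patterns in overlap would be counted for each. A match describes the letters, and the absence of one says only that they are not in this window.

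The sulfate donor synthases differed little between the eyes. *Papss1* ranged from 82.3 to 145 CPM (median 114) in P20 control eyes, 99.4 to 136 CPM (median 112) in P20 Nrf2 eyes, 46.8 to 119.5 CPM (median 90.3) in P40 control eyes, and 50.3 to 121 CPM (median 100.3) in P40 Nrf2 eyes. Its log2 fold change with Nrf2 was −0.02 ± 0.15 (SE) at P20 (−0.13 without P20 mice 3 and 4) and 0.04 ± 0.16 at P40. *Papss2* ranged from 23.5 to 81.0 CPM (median 52.0) in P20 control eyes, 33.8 to 73.7 CPM (median 60.3) in P20 Nrf2 eyes, 19.3 to 52.2 CPM (median 32.6) in P40 control eyes, and 12.7 to 50.2 CPM (median 33.3) in P40 Nrf2 eyes. Its log2 fold change was 0.02 ± 0.32 (SE) at P20 (0.08 without P20 mice 3 and 4, −0.42 at the lowest among the other settings) and −0.13 ± 0.27 at P40. Both genes had mice in each direction at each age.

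*Sult1c1*, a cytosolic sulfotransferase, was lower in the Nrf2 eye of every mouse, which held for 2.58% of all genes tested at P20 and 1.06% at P40. At P20, *Sult1c1* ranged from 23.9 to 66.2 CPM (median 44.4) in control eyes and from 4.16 to 45.0 CPM (median 12.3) in Nrf2 eyes. At P40, *Sult1c1* ranged from 75.0 to 370.1 CPM (median 196) in control eyes and from 8.55 to 137 CPM (median 21.9) in Nrf2 eyes. The groups overlapped at each age. At P20 this was through the library labelled P20 mouse 4 Nrf2, at 45.0 CPM, and at P40 through mouse 3, at 370.1 CPM in the control eye and 137 CPM in the Nrf2 eye, the highest of each group.

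The log2 fold change of *Sult1c1* was −1.91 ± 0.42 (SE, 7 pairs) at P20, or 0.266 times the control level, and −2.92 ± 0.41 (SE, 9 pairs) at P40, or 0.132 times. Without P20 mice 3 and 4 the P20 value was −2.43. At P40 it kept its call without any 1 mouse, with values between −3.17 and −2.66. The summed rod and cone markers were also lower in Nrf2 eyes, with medians of 712 CPM in P40 control eyes and 34.8 CPM in P40 Nrf2 eyes for cones and 169 and 17.2 CPM for rods. The summed 10 RPE markers had medians of 35249 CPM in P40 control eyes and 19485 CPM in P40 Nrf2 eyes. At P20 the RPE medians ran the other way, with 14561 CPM in control eyes and 16985 CPM in Nrf2 eyes. The part of these levels in the *Sult1c1* result was not tested.

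*Sult1a1*, a phenol sulfotransferase, ranged from 16.03 to 20.6 CPM (median 18.8) in P20 control eyes and from 9.75 to 20.6 CPM (median 14.7) in P20 Nrf2 eyes, lower in 6 of 7 mice. At P40 it ranged from 15.4 to 32.6 CPM (median 20.97) in control eyes and from 10.05 to 29.6 CPM (median 17.6) in Nrf2 eyes, lower in 6 of 9 mice. Its log2 fold change was −0.37 ± 0.15 (SE) at P20 (−0.42 without P20 mice 3 and 4) and −0.29 ± 0.21 at P40, and neither passed. *Sult1d1*, a further cytosolic sulfotransferase, had 0 counts in every library except the P20 Nrf2 eye of mouse 2, which had 11, and was the 1 member removed by the filter on low counts in each comparison.

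**Figure D3:**
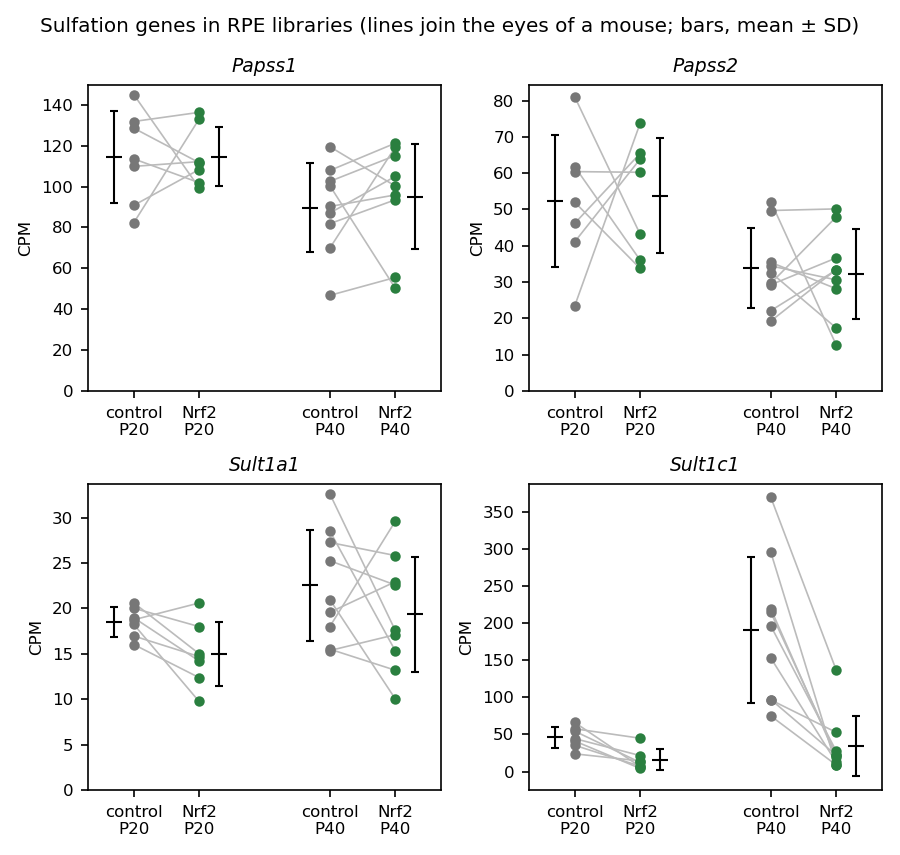
Level in CPM of *Papss1*, *Papss2*, *Sult1a1*, and *Sult1c1* in every library, with control eyes in gray, Nrf2 eyes in green, a line joining the eyes of a mouse, and the mean ± SD beside each group (7 mice at P20, 9 at P40). All lines of *Sult1c1* fall, from control levels up to 370.1 CPM at P40, while those of the other genes run in each direction.

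Between the ages, *Sult1c1* was the member that moved in control eyes. Its lowest P40 control eye (75.0 CPM) was above its highest P20 control eye (66.2 CPM), which among genes tested held for 1.13% in the upward direction. The log2 fold change was 2.09 ± 0.34 (SE, 7 and 9 eyes), or 4.26-fold, and *Sult1c1* was the 1 member of 9 called, beside 14.8% of all genes in either direction. The call held without any 1 eye and without P20 mice 3 and 4 (2.14, with 0.916% of all genes called). In Nrf2 eyes the groups overlapped and the log2 fold change of *Sult1c1* was 1.17 ± 0.62 (SE), and no call. Without P20 mice 3 and 4 it was 1.99, with no call and 0.116% of all genes called. The median summed level of the RPE markers was 14561 CPM in P20 control eyes and 35249 CPM in P40 control eyes, and that of the cone markers 298 and 712 CPM. The part of these levels, and of a difference in strain, in the *Sult1c1* result was not tested.

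The other members did not pass in control eyes. *Papss2* had a log2 fold change with age of −0.59 ± 0.24 (SE) in control eyes and −0.71 ± 0.26 in Nrf2 eyes. The values were −0.33 ± 0.17 and −0.24 ± 0.18 for *Papss1* and 0.32 ± 0.17 and 0.41 ± 0.23 for *Sult1a1*. *Ugdh* had 0.10 ± 0.16 and 0.12 ± 0.19. The value of *Ugt1a6a* was −0.34 ± 0.51 in control eyes against 0.80 ± 0.43 in Nrf2 eyes. That of *Ugt1a6b* was −0.20 ± 0.49 against 0.72 ± 0.42. Without P20 mice 3 and 4 the control and Nrf2 values were −0.58 and −0.74 for *Papss2*, −0.38 and −0.21 for *Papss1*, and 0.34 and 0.45 for *Sult1a1*. They were 0.16 and 0.07 for *Ugdh*, −0.45 and 0.67 for *Ugt1a6a*, and −0.32 and 0.63 for *Ugt1a6b*. None of the 9 members tested passed in Nrf2 eyes with edgeR, beside 0.502% of all genes, and 1 had an unadjusted *P* under 0.05. DESeq2 called 0 there beside 10.5% of all genes, and limma voom with quality weights called 2, *Ugt1a6a* and *Ugt1a6b*, beside 13.2%.

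**Figure D4:**
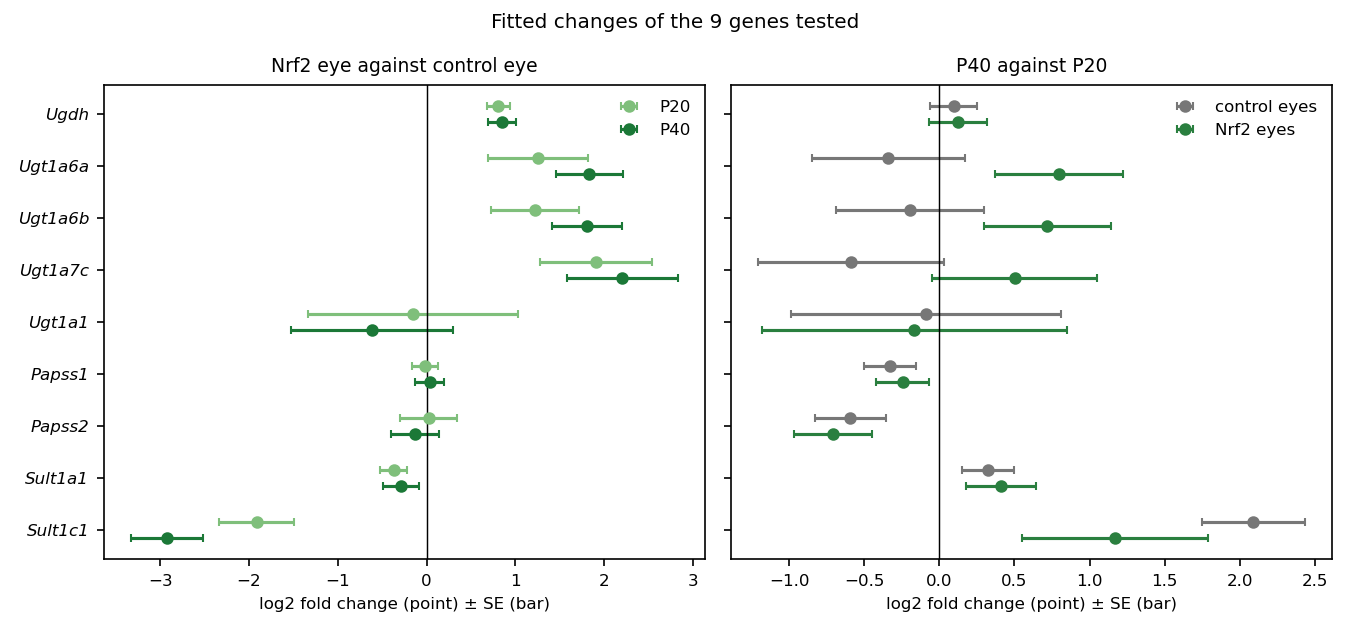
Fitted log2 fold change (point) ± SE (bar) of the 9 members tested, for the Nrf2 eye against the control eye at P20 and P40 on the left and for P40 against P20 in control and Nrf2 eyes on the right. *Ugdh* lies at 0.81 and 0.85 with Nrf2, *Sult1c1* at −1.91 and −2.92, and with age in control eyes *Sult1c1* stands at 2.09.

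Whether the Nrf2 effect differed between the ages was tested as an interaction over all 32 libraries. No member passed, with an adjusted *P* of 0.9995 for each of the 9 (edgeR), and none had an unadjusted *P* under 0.05. DESeq2 and limma voom also called 0 members, beside 0.0668% of all genes with DESeq2 and 0.00557% with limma and with edgeR. The estimate was −0.997 ± 0.59 (SE, log2) for *Sult1c1*, 0.58 ± 0.69 for *Ugt1a6a*, and 0.05 ± 0.21 for *Ugdh*. For *Sult1c1* it was −0.51 without P20 mice 3 and 4.

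Among Nrf2 eyes of 1 age, members were compared with the level of the transgene in 18 tests. At P20, *Ugdh* had a Pearson *r* of 0.966 (exact permutation test, two-sided, *P* = 0.00714, adjusted *P* = 0.129, n = 7) and a Spearman rho of 0.714 (exact *P* = 0.0881, adjusted *P* = 0.571). Its *r* was 0.941 without the 2 eyes farthest from the median transgene level and 0.922 without P20 mouse 4 (exact permutation *P* = 0.1, n = 6). *Ugt1a7c* at P20 had *r* = 0.807 (exact permutation *P* = 0.0266, adjusted *P* = 0.239) and rho = 0.821 (exact *P* = 0.0341, adjusted *P* = 0.571), and *r* fell to 0.586 without P20 mouse 4. At P40 *Ugdh* had *r* = 0.455 (exact permutation *P* = 0.216, adjusted *P* = 0.651, n = 9). None of the 18 passed the correction.

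Per kilobase of exonic length, the order of the members changed with group. In P40 control eyes *Sult1c1* was highest at 123 ± 63.1 CPM per kb (SD, n = 9), followed by *Papss1* at 29.3 ± 7.14, *Sult1a1* at 14.98 ± 4.06, *Ugdh* at 13.6 ± 3.15, and *Papss2* at 9.10 ± 2.97. In P40 Nrf2 eyes *Papss1* came first at 31.2 ± 8.49 CPM per kb (SD, n = 9), with *Ugdh* at 25.3 ± 7.04, *Sult1c1* at 22.2 ± 26.1, *Ugt1a6b* at 18.02 ± 10.9, *Sult1a1* at 12.8 ± 4.19, and *Ugt1a6a* at 11.8 ± 6.95. In P20 control eyes *Papss1* was at 37.5 ± 7.39 and *Sult1c1* at 29.7 ± 9.26 CPM per kb (SD, n = 7). Apart from *Sult1c1* in P40 control eyes, most neighbors in these orders lay within their SDs of each other. The order of *Ugt1a6b* and *Ugt1a6a* rests on annotated exonic lengths of 2382 and 4312 bases. By counts *Ugt1a6a* was the larger, at 54.1% of both in P40 Nrf2 eyes. *Ugt1a7c* and *Ugt1a1* were at or below 1.35 CPM per kb on average in each group.

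The genes around the members came from 7 lists of 115 genes with a row in the table, 75 of which were tested at P20 and 76 at P40. At P20, 7 of the 75 rose and none fell, beside 2.93% of all genes that rose and 0.485% that fell. At P40, 8 of the 76 rose and 1 fell, beside 3.33% and 1.23%. DESeq2 called 19 related genes at P20 and 12 at P40, beside 12% and 8.27% of all genes. Of the 7 P20 calls, 6 remained without P20 mice 3 and 4, and *Sumf1* was lost. All 7 were lost without mouse 7, and only 1 related gene was called without mouse 1, without mouse 3, or without mouse 5.

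In the list of UDP-glucose and UDP-glucuronate supply, transport, and use, both *Pgm1* and *Ugp2* passed at each age. *Pgm1*, taken by its symbol as a phosphoglucomutase, had log2 fold changes of 1.00 ± 0.17 (SE) at P20 and 1.25 ± 0.19 at P40. Which phosphoglucomutase gene this symbol names in the annotation used was not checked. *Ugp2*, which makes UDP-glucose, had 0.57 ± 0.09 and 0.54 ± 0.14. Both genes were higher in the Nrf2 eye of every mouse at each age. At P20 the call of *Pgm1* was lost in 6 and that of *Ugp2* in 4 of the 7 fits that left out a mouse. At P40 *Pgm1* kept its call in 9 of 9 such fits, and *Ugp2* lost it in 8 of 9, with RLE, and with no filter. *Ugp2* ranged from 53.2 to 63.5 CPM in P20 control eyes and from 70.7 to 106 CPM in P20 Nrf2 eyes, without overlap. *Chpf2*, a chondroitin polymerizing factor, which uses UDP-glucuronic acid, rose at P20 (1.40 ± 0.27). Its call was lost in 5 of the 7 fits that left out a mouse. In this list of supply, transport, and use, 3 of 15 genes tested rose at P20 and 2 of 15 at P40, and none fell.

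Of the enzymes that remove sulfate or glucuronic acid and their cofactors, 4 of 14 tested rose at P20 and 3 of 14 at P40. The heparan sulfate endosulfatase genes *Sulf2* and *Sulf1* had log2 fold changes of 2.20 ± 0.32 (SE) and 1.43 ± 0.30 at P20 and of 1.45 ± 0.22 and 0.80 ± 0.21 at P40. *Sumf2*, a sulfatase-modifying factor, rose at P20 (0.57 ± 0.11). Of the 7 P20 fits that left out a mouse, *Sulf1* and *Sumf2* lost their calls in 6 each and *Sulf2* in 1. *Gusb*, the lysosomal β-glucuronidase, rose at P40 (0.79 ± 0.19) from 26.8 ± 7.12 to 47.3 ± 14.8 CPM (SD, n = 9) and was higher in the Nrf2 eye of every mouse at both ages. *Gusb* was not called at P20. At P40 *Sulf2* kept its call in 9 of 9 fits that left out a mouse, *Gusb* lost it in 6, and *Sulf1* in 8.

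*Slc26a1*, a sulfate transporter, had the largest change of the related genes at P40 (2.79 ± 0.31, SE), from 0.652 ± 0.313 to 4.51 ± 2.05 CPM (SD, n = 9), higher in 9 of 9 mice. It was the 1 gene called of 10 in the list of sulfate uptake and PAPS handling. Of the Golgi sulfotransferases, which also use PAPS, *Hs6st2* (1.47 ± 0.30) and *Chst12* (1.14 ± 0.21) rose at P40, 2 of 25 tested, and none of 25 passed at P20. Of the nuclear receptors and Ahr, *Hnf4a*, a regulator of epithelial and liver genes, fell at P40 (−1.23 ± 0.29, lower in 8 of 9 mice), a call lost without the mouse as a block and without mouse 1, 3, 4, 8, or 9. Of 17 other cytosolic sulfotransferases 4 were tested at P20 and 5 at P40, and of 18 other UDP-glucuronosyltransferases 1 was tested at each age, and none passed with edgeR. *Ugt1a8* and *Ugt1a9* passed at P40 with no filter, beside 2.59% of all genes. *Sult4a1* passed at P20 with DESeq2 and limma, beside 12% and 16%.

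With age in control eyes, 13 of 79 related genes fell and none rose, beside 6.42% and 8.34% of all genes. Of these, 9 were Golgi sulfotransferases, with *Chst1* (−2.60 ± 0.59, SE), *Hs6st1* (−1.61 ± 0.32), and *Ust* (−1.47 ± 0.31) furthest. *Slc26a2*, a sulfate transporter, *Arsi* and *Arsa*, both arylsulfatases, and *Arnt*, the dimer partner of Ahr, also passed (−0.83 ± 0.27, −1.42 ± 0.44, −0.87 ± 0.22, and −0.62 ± 0.18). The count was 1, *Hs6st1*, without P20 mice 3 and 4, beside 0.916% of all genes in either direction. Of the 16 fits that left out an eye, *Slc26a2* lost its call in 13 and *Arsi* and *Arnt* in 10 each, while *Chst1*, *Hs6st1*, and *Ust* kept theirs in all 16. In Nrf2 eyes *Hs3st3a1*, which encodes a heparan sulfate sulfotransferase, fell with age (−1.58 ± 0.34), 1 of 77 tested, beside 0.334% of all genes that fell and 0.167% that rose, a call lost in 14 of 16 fits that left out an eye, and none passed without P20 mice 3 and 4. No related gene passed with edgeR in the test of whether the Nrf2 effect changed from P20 to P40.

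Over the 32 libraries, the genes whose log2 CPM was most like that of *Ugdh* among 11794 genes were *Hsd3b7* (Pearson *r* = 0.975), *E2f6* (0.974), and *Hfe* (0.965). Those most like *Sult1c1* were *Endou* (0.920), *B3gnt2* (0.918), and *Rpe65* (0.906), the last a visual cycle enzyme. The libraries share mice, groups, and depth, and these values are a description.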

How the data were processed

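RPE RNA from both eyes of 16 *rd1* mice was amplified and sequenced by the authors in 2 runs, which the labels do not assign to libraries, so a run effect was not tested. The labels give all P40 mice as *rd1*, while the methods also describe wild-type P40 mice; groups follow the labels. The authors deposited unnormalized estimated counts for each gene, which hold whole numbers only. Per the labels they used Salmon 0.9.1, with Ensembl 91 transcripts and the human transgene; their methods also name STAR and featureCounts, and which the deposited counts came from is not stated. Estimated counts divide reads that fit several genes, which affects the *Ugt1a* rows.

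The counts were analyzed in R 4.3.3 with edgeR 4.0.16 (filterByExpr, TMM, quasi-likelihood F test, Benjamini-Hochberg over all genes tested, threshold 0.05). Mouse was a block in the Nrf2 comparisons and in the difference between ages, since the study paired the eyes of an animal. Eyes were paired by the replicate number in the titles. Across genes, deviations of eyes paired in this way had a mean correlation of 0.0213 (P20) and 0.0990 (P40). For Nrf2 and control eyes of different mice it was −0.000519 (P20) and −0.00632 (P40). Log2 CPM used a prior count of 2. Floors (3 counts) depend on library totals and cover counting error only. The SE of an edgeR log2 fold change was taken as its absolute value over the square root of the F statistic. These SEs also include the variation between libraries.

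Named genes were the members, the transgene, up to 3 called genes by absolute log2 fold change per related list and comparison, and the 3 genes most like *Ugdh* and *Sult1c1* (mean log2 CPM of at least 2). Members and lists were chosen with earlier results of these data known. Alternatives were DESeq2 1.42.0, limma 3.58.1 voom with quality weights, RLE, no filter, at least 10 counts in every library, no block, leaving out mice or eyes, leaving out P20 mice 3 and 4, and the summed *Ugt1a* row. The fits were also run on simulated counts with known changes, as a check of the code. Those counts held no mouse effect and no mixed library, so they say nothing on the P20 libraries in doubt. Exons came from GENCODE and promoters from RefSeq.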

Additional observations from a re-analysis of the deposited data

Results flagged for a closer look

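In 41 groups of values of the members and the *Ugt1a* locus, 2 held a library that stood apart from the others of its group by Dixon's criterion, and chance alone gives about 1 in 20. *Ugdh* in the library labelled P20 mouse 4 Nrf2 was at 98.7 CPM, against 147 to 192 CPM in the other P20 Nrf2 eyes, and this library also carried the lowest transgene level of the group. *Sult1d1* in the P20 Nrf2 eye of mouse 2 was at 0.603 CPM, against 0 in the other 6.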

How the results depend on the processing

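At P20 edgeR with the mouse as a block called 2 members and 7 related genes. DESeq2 called 4 members and 19 related genes (12% of all genes), limma voom with quality weights 4 and 24 (16%), no filter 1 and 3 (1.19%), and the fit without the replicate block 1 and 13 (6.7%), against 3.41%. At P40 the 4 members called were 5 under DESeq2, limma, and the fit without the block, and the 9 related genes were 12 under DESeq2 and limma, 8 with at least 10 counts in every library, and 7 with RLE and without the block. These fits called 8.27% of all genes with DESeq2, 7.95% with limma, and 4.85% with at least 10 counts in every library. RLE called 4.49% and the fit without the block 4.29%, against 4.57%. With age in control eyes the 13 related genes were 21 with limma, 4 without a filter, and 1 without P20 mice 3 and 4. The shares of all genes called were 22.3% with limma and 0.916% without P20 mice 3 and 4, against 14.8%. With age in Nrf2 eyes, 0 members and 1 related gene became 2 and 13 with limma, 5 related genes with DESeq2, 2 with at least 10 counts in every library, and 0 with RLE, no filter, or without P20 mice 3 and 4. Of all genes, limma called 13.2%, DESeq2 10.5%, and the fit without P20 mice 3 and 4 0.116%, against 0.502%. The *Ugt1a* locus passed at P20 with DESeq2 (1.32) and with age in Nrf2 eyes with limma (1.07), and its log2 fold change with age in control eyes turned from −0.27 to 0.14 with limma and ranged from −0.46 to 0.0231 when 1 eye was left out, with 0.0231 without the control eye of P20 mouse 6. The cause was not tested. Leaving out 1 mouse gave 0 to 2 members and 0 to 16 related genes at P20, beside shares of all genes from 0.68% to 12.2%. At P40 it gave 3 to 5 members and 5 to 9 related genes. Leaving out 1 eye gave 1 to 2 members and 3 to 18 related genes with age in control eyes. With age in Nrf2 eyes it gave 0 to 2 related genes. Nothing is read from a count whose share of all genes is not given beside it. No call of a member changed direction. Depth limits *Ugt1a9* and *Sult1d1*.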
